A study of Mus musculus with 1536 samples.

Results

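The receptors for corticotropin-releasing factor (CRF), orexin, neuropeptide Y (NPY) and cholecystokinin (CCK) were followed through single serotonin neurons of the mouse raphe. The 9 genes were taken by name: Crhr1 and Crhr2, Hcrtr1 and Hcrtr2, Npy1r, Npy2r and Npy5r, and Cckar and Cckbr. All 9 are among the 53263 genes listed, and 8 of them are among the 25522 genes with a read in at least 3 cells. Cckbr, with a read in 2 cells, is the exception and could not enter the comparisons across genes.

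The study asked how serotonin neurons of the dorsal raphe (DR) and median raphe (MR) divide into molecular types. Cells were sorted by red fluorescence from C57BL/6J mice 40 to 45 days old, of the genotype labelled Sert-tdTomato-Cre crossed with Ai14, in which Cre driven by the serotonin transporter gene switches on tdTomato in every group. Under this driver the reporter can also mark cells outside the raphe that used the transporter only during development. The cells came from a dissection labelled Principal DR (290 cells on 5 plates) and from one labelled All DR (709 cells on 11 plates), which by the study's design text also took in the caudal DR and the MR. Both sexes were used, but neither animal nor sex is given for a cell, so each dissection counted as 1 sample, the spread is that of plates, and no test was run over cells.

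CRF and the urocortins are stress peptides that act through the receptors encoded by Crhr1 and Crhr2, both coupled to stimulatory G proteins, and the protein encoded by Crhbp binds CRF outside the cell. Orexins, made in the lateral hypothalamus, promote waking and excite serotonin neurons, and the receptor encoded by Hcrtr1 prefers orexin A while that encoded by Hcrtr2 takes both orexins. NPY and its relatives PYY and pancreatic polypeptide act through inhibitory Y receptors in feeding and anxiety circuits, and CCK acts through a receptor found mostly in the gut and hindbrain (Cckar) and one widespread in the forebrain (Cckbr).

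Each cell was 1 Smart-seq2 library, a full-length method without molecular identifiers, and its values are CPM, reads on a gene as a share of all reads on genes scaled to 1e6. A cell was counted as positive for a gene with at least 1 read. The median depth was 755926 reads in the principal DR and 869546 in the all DR cells. The serotonin markers Tph2, Fev, Slc6a4 and Slc18a2 had a read in at least 99.7% of cells of either dissection, while no marker of microglia, endothelial cells or dopamine neurons had a read in more than 6.90% of cells. At least 1 oligodendrocyte marker had a read in most cells, up to 95.2% and 96.3% for the commonest, at a median summed level of 99.1 and 104 CPM, and summed oligodendrocyte or astrocyte markers were above 1000 CPM in 2 and 6 cells. The commonest astrocyte marker had a read in 47.6% and 61.1% of cells, with a median summed level of 1.77 and 8.68 CPM.

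The upstream sequences of Crhr2 and Npy2r are shown because these genes, with Hcrtr2, moved together across cells as described below, and because the 250 bases before their starts hold no exon of the gene, whereas 233 of the bases before the start of Hcrtr2 lie in its own exons. They are from RefSeq on GRCm38.p6 and read 5′ to 3′ on the minus strand, which both genes use, at chr6:55133017-55133266 for Crhr2 and chr3:82548086-82548335 for Npy2r. Each window was searched on both strands for 4 motifs, and capitals mark the only match found in it. The first motif was the TATA box, spelled TATAAA, which places the start of transcription in some promoters. The second was the core bound by ETS family factors, written as CCGGAA in the search. A further one was the half-site of the cyclic AMP response element, with the letters TGACG, and the last was the GC box bound by Sp family factors, whose letters are GGGCGG. No match overlapped another in these windows.
Crhr2: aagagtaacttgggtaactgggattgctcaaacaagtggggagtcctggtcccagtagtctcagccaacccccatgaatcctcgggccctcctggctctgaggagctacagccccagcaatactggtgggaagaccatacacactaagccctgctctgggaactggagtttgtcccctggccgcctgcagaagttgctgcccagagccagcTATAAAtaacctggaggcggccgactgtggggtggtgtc
Npy2r: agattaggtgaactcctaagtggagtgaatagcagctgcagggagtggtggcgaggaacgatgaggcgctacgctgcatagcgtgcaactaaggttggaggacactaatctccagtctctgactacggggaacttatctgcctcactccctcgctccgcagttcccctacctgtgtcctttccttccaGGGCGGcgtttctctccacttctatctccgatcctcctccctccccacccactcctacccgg
The match in Crhr2 begins 39 bases before the start, and TATAAA is in 12.4% of 32851 RefSeq promoter windows of this length. The match in Npy2r begins 62 bases before the start, and GGGCGG is in 32.7% of them. The windows share none of the motifs searched. In all, 8 of the 9 receptors matched an entry.

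Of the CRF receptors, Crhr2 (chromosome 6, 55090049 to 55133016, GRCm38) was the one detected in many cells. It had a read in 117 principal DR cells (40.3%, exact Clopper-Pearson 95% interval 34.7 to 46.2) and in 289 all DR cells (40.8%, 37.1 to 44.5), intervals that cover counting error only. Plates ran from 21.4% over a median of 43.9% to 48.8% in the principal DR and from 22.2% over 40.0% to 50.7% in the all DR dissection. The plates of the dissections thus overlapped along nearly their whole range. The mean level was 23.6 CPM in principal DR and 25.6 CPM in all DR cells, and cells with a read held a median of 41.1 and 52.3 CPM. Few of the positive cells had only 1 to 4 reads, 11 of the 117 and 18 of the 289. Without molecular identifiers, more reads need not mean more molecules.

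Crhr1 (chromosome 11, 104132855 to 104175523) had a read in 2 principal DR cells (0.69%, 0.0836 to 2.47) and 8 all DR cells (1.13%, 0.488 to 2.21). The 2 principal DR cells were on the same plate, while the 8 came from 6 of 11 plates. Counts in these cells were 4 to 8 and 2 to 21 reads. At this share a difference of Crhr1 between sets of cells was not detectable.

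Among the ligands of these receptors, Crh itself had a read in 41 principal DR cells (14.1%) and 39 all DR cells (5.50%). Crhr2 reads were present in 28 of those 41 cells (68.3%) against 89 of the 249 without Crh (35.7%), and in 30 of the 39 (76.9%) against 259 of 670 (38.7%), higher on all 5 plates that could be compared in each dissection. Median depths with and without Crh were 739451 and 762049 reads in the principal DR and 1102070 and 857668 in the all DR dissection. In both, cells with a read of the peptide more often had a read of Crhr2 than cells without it. The part of depth in this was not tested. Crhbp went the other way in the all DR cells, where 32 of 181 Crhbp-positive cells had a read of Crhr2 (17.7%) against 257 of 528 without Crhbp (48.7%), lower on 10 of 11 plates. Principal DR shares were 35.7% and 43.3%, lower on 3 of 5 plates. Ucn2 had a read in 12 and 29 cells, Ucn in 2 and 0, and Ucn3 in 0 of 999, which allows a share of up to 0.30%.

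Hcrtr1 (chromosome 4, 130130217 to 130139359) was the most widespread receptor of the list. It had a read in 269 principal DR cells (92.8%, 89.1 to 95.5) and 615 all DR cells (86.7%, 84.0 to 89.2). Plates ran from 86.0% over 92.7% to 96.5% and from 81.6% over 87.5% to 90.1%. The plates of both dissections were high throughout and overlapped. The mean level was 214 CPM in principal DR and 209 CPM in all DR cells, with plate means from 142 to 284 CPM and from 146 to 260 CPM. Its mean over all cells was higher than that of 97.3% of the 25522 genes.

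Cells without a read of Hcrtr1 were few and, in the all DR dissection, mostly had a read of Zeb2. Of the 94 such cells, 62 (66.0%) had a read of Zeb2, a zinc finger transcription factor, against 20.7% of all cells of the dissection. The median depth was 800910 reads in cells without and 886865 reads in cells with Hcrtr1. Of the 21 principal DR cells without Hcrtr1 1 had a read of Zeb2 and 15 a read of Slc17a8, and their median depth was 617685 reads against 766482 in the others.

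Hcrtr2 (chromosome 9, 76225880 to 76323856) had a read in 174 principal DR cells (60.0%, 54.1 to 65.7) and 324 all DR cells (45.7%, 42.0 to 49.4). Plates ran from 46.4% over 60.2% to 70.7% and from 22.2% over 46.7% to 57.1%. The median principal DR plate stood above every all DR plate, although the ranges overlapped. The mean level was 31.4 CPM in principal DR and 21.3 CPM in all DR cells. Nearly all cells with Hcrtr2 also had a read of Hcrtr1, 166 of 174 (95.4%) and 306 of 324 (94.4%), against 103 of 116 (88.8%) and 309 of 385 (80.3%) of the cells without Hcrtr2. A read of Hcrtr2 thus nearly always came with one of Hcrtr1, while many cells had Hcrtr1 without Hcrtr2. The gene for their ligand, Hcrt, had a read in 4 and 12 cells, at most 7.78 CPM.

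Npy2r (chromosome 3, 82538383 to 82548084), whose receptor often sits on nerve endings and restrains release, was the main NPY receptor. It had a read in 105 principal DR cells (36.2%, 30.7 to 42.0) and 160 all DR cells (22.6%, 19.5 to 25.8). Plates ran from 17.9% over 36.6% to 46.2% and from 3.70% over 23.0% to 31.2%. The median principal DR plate again lay above every all DR plate, and a plate of 27 all DR cells had the lowest share, with 1 positive cell. The mean level was 16.7 and 12.6 CPM, and positive cells held a median of 30.2 and 38.9 CPM.

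Npy1r and Npy5r, encoded 9063 bases apart on chromosome 8 (66697192 to 66706792 on the plus and 66679965 to 66688128 on the minus strand), were rare. Npy1r had a read in 13 principal DR cells (4.48%, 2.41 to 7.54) and 32 all DR cells (4.51%, 3.11 to 6.31). Npy5r had a read in 9 (3.10%, 1.43 to 5.81) and 20 (2.82%, 1.73 to 4.32). Both were at 0 on some plates of either dissection, and 2 principal DR plates held all 13 Npy1r cells, 10 of them on plate SER12. The same plate held 7 of the 9 principal DR cells with Npy5r. The rare receptors nonetheless met in the same cells, since 5 of the 9 and 7 of the 20 Npy5r cells also had a read of Npy1r, against 8 of 281 (2.85%) and 25 of 689 (3.63%) of the cells without Npy5r. Only 1 principal DR and 3 all DR plates had enough cells to compare, and the share was higher on each. No exon bases of one lie in the other. Of the related genes, Npy had a read in 1 and 2 cells, Npy4r in 9 and 15, and Pyy, Ppy and Npy6r in 0 of 999.

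Cckar (chromosome 5, 53697776 to 53707705) had a read in 27 principal DR cells (9.31%, 6.23 to 13.3) and 66 all DR cells (9.31%, 7.27 to 11.7). Plates ran from 2.33% over 9.41% to 14.3% and from 2.63% over 9.72% to 16.2%. Shares were alike in the dissections and uneven between plates. The mean level of 2.90 and 4.43 CPM was carried by few cells, with a median of 20.6 and 26.7 CPM among those with a read and a highest value of 366 CPM. Cckbr (chromosome 7, 105425731 to 105470898) had a read in 0 of 290 principal DR cells, which allows a share of up to 1.03%, and in 2 of 709 all DR cells (0.282%, 0.0342 to 1.02), 1 with 48 reads and 1 with 1 read. Cck had a read in 1 cell of each dissection.

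**Figure D1:**
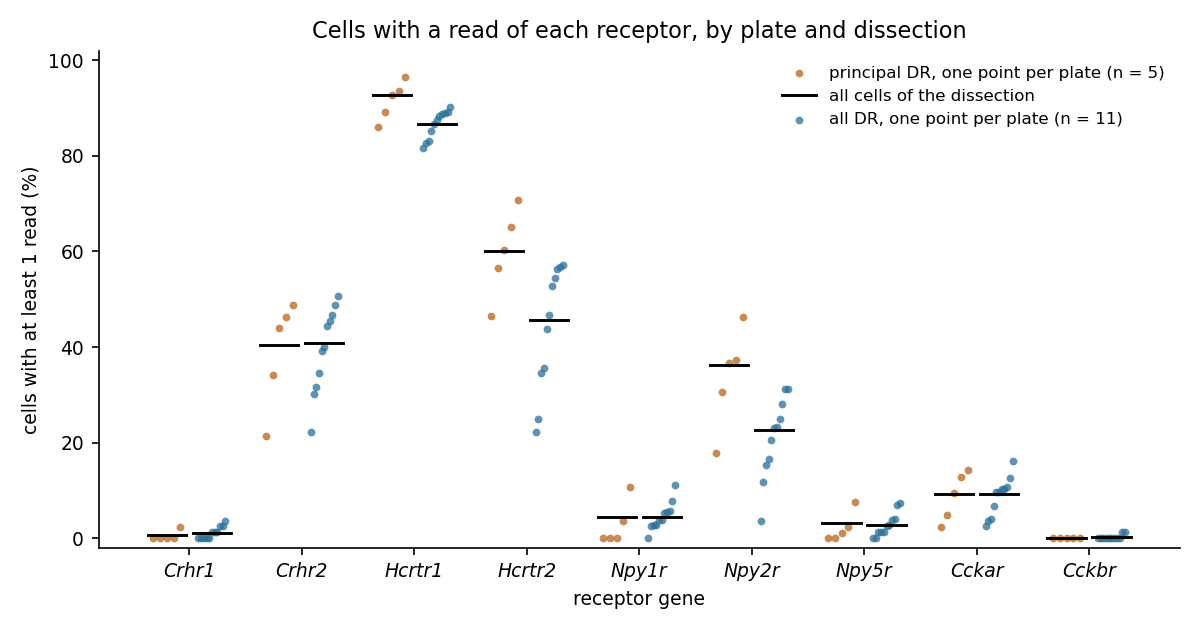
Percentage of cells with at least 1 read (vertical axis) of each receptor (horizontal axis), with 1 point per plate and a black line for all cells of the dissection. Hcrtr1 plates lie between 81.6% and 96.5% in both dissections, Hcrtr2 and Npy2r plates reach higher in the principal DR, and Crhr1, Npy1r, Npy5r, Cckar and Cckbr stay at or under 16.2% on every plate.

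Levels were compared between genes as CPM per kilobase of exon. In all DR cells Hcrtr1 was highest at 80.2, followed by Crhr2 (5.00), Npy2r (3.72), Hcrtr2 (3.45), Cckar (1.20), Npy5r (0.208), Npy1r (0.201), Crhr1 (0.0487) and Cckbr (0.0352). Hcrtr1 stood apart, with a lowest plate of 56.1 against a highest plate of 6.99 for Crhr2. Crhr2, Npy2r and Hcrtr2 did not differ from each other beyond their plates, which ran from 1.98 to 6.99, from 0.173 to 5.93 and from 1.33 to 5.06. Neighbours further down the order overlapped in the same way. In principal DR cells the values were 81.9 for Hcrtr1, 5.10 for Hcrtr2, 4.95 for Npy2r, 4.61 for Crhr2 and 0.787 for Cckar, so Hcrtr2, Npy2r and Crhr2 stood in another order, within the spread of their plates. Cckar plates there, up to 1.67, did not reach the lowest Crhr2 plate of 2.21.

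The dissections were compared to see whether receptors differ between the principal DR and the wider region. None of the 9 receptors passed a log2 ratio of 1 of (mean CPM + 1), in all DR over principal DR cells, where 0.901% of 25522 genes were higher and 1.54% lower. The largest differences were Hcrtr2 at −0.54 (SD of plate means 0.53), Cckar at 0.48 (SD 0.91), Npy2r at −0.38 (SD 0.94) and Npy1r at 0.30 (SD 0.56), and Hcrtr1 stood at −0.03 (SD 0.34). Plate means of the dissections overlapped for every receptor. Without plate SER12, the principal DR plate with the highest mean Cckar (6.13 CPM), the ratio of Cckar was 1.19. The median over the 8 receptors in at least 3 cells was 0.05, beside −0.01 over all genes. Of the 12 ligands and related genes 6 had a read in at least 3 cells and 0 passed. Crhbp was at 5.57 CPM in all DR and 11.3 CPM in principal DR cells, a ratio of −0.90. Its plates, from 3.27 to 8.47 CPM and from 8.94 to 19.0 CPM, did not overlap. The highest principal DR cell held 446 CPM of Crhbp, against an upper quartile of 33.3 CPM among cells with a read. Plate means without this cell were not computed, so the ratio and the lack of overlap may depend on it. The share of all genes with or without such overlap was not counted, so neither outcome can be called unusual. Zeb2-positive cells numbered 147 in the all DR and 3 in the principal DR dissection, and without them, an alternative chosen after seeing the data, the ratio was −0.25 for Hcrtr2 and −0.08 for Npy2r.

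A cell held a read of 2.47 of the 9 receptors on average in the principal DR (plate means 1.89 to 2.77) and of 2.14 in the all DR dissection (1.59 to 2.52). With 0 receptors there were 5 cells (1.72%) and 42 cells (5.92%), with 1 there were 67 (23.1%) and 247 (34.8%), and with 4 there were 62 (21.4%) and 107 (15.1%). The highest number was 6 in the principal DR and 7, in 1 cell, in the all DR dissection. Most cells thus had reads of 1 to 4 of the receptors. Cells with more receptors were also deeper in the all DR dissection, with a median of 790087 reads at 1 receptor and 948286 at 5, against 747419 and 810100 in the principal DR. Thinned to 250000 reads a cell, the means were 2.39 and 2.08 receptors.

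**Figure D2:**
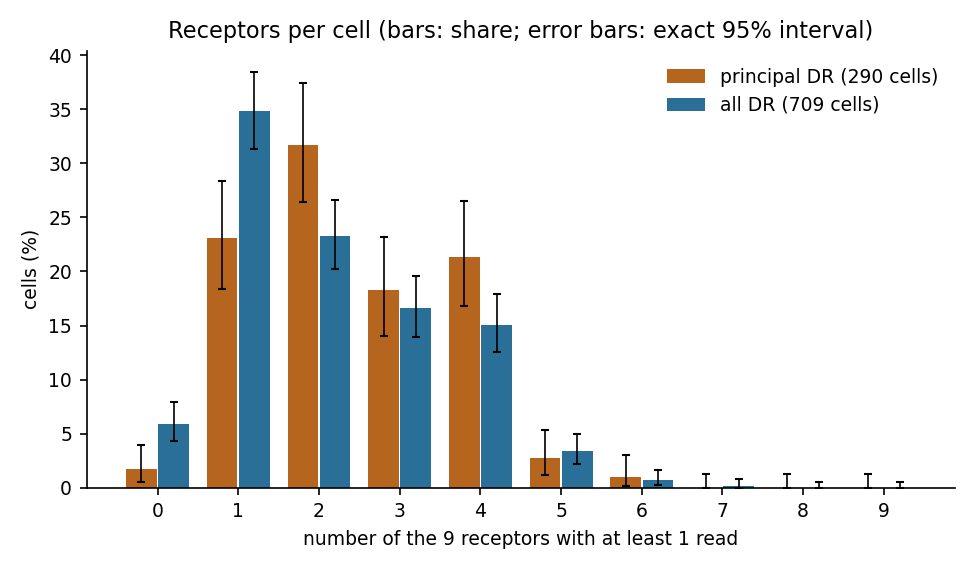
Percentage of cells (vertical axis) by the number of the 9 receptors with at least 1 read (horizontal axis) in 290 principal DR and 709 all DR cells, with exact 95% intervals as error bars. The all DR cells peak at 1 receptor (34.8%) and the principal DR cells at 2 (31.7%), and cells with 4 receptors make up 21.4% and 15.1%.

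Although 41 combinations occurred in the principal DR and 54 in the all DR dissection, the 5 most frequent held 72.4% and 73.3% of the cells. Hcrtr1 alone was the most frequent, in 62 cells (21.4%, 16.8 to 26.6) and 216 cells (30.5%, 27.1 to 34.0). The combination of Crhr2, Hcrtr1, Hcrtr2 and Npy2r came in 51 cells (17.6%, 13.4 to 22.5), on all 5 plates, and in 89 cells (12.6%, 10.2 to 15.2), on 10 of 11 plates. Hcrtr1 with Hcrtr2 came in 57 and 78 cells, and Crhr2 with Hcrtr1 and Hcrtr2 in 29 and 88 cells. The frequent combinations therefore differed by which of Hcrtr2, Crhr2 and Npy2r were added to Hcrtr1.

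Hcrtr2, Crhr2 and Npy2r tended to occur in the same cells. All 3 had a read in 63 principal DR cells (21.7%, 17.1 to 26.9) and 120 all DR cells (16.9%, 14.2 to 19.9), and none of the 3 in 75 (25.9%) and 294 (41.5%). Crhr2 with Npy2r but without Hcrtr2 was seen in 5 and 2 cells. Crhr2 without the other 2 was seen in 15 and 70 cells, and Npy2r without the other 2 in 21 and 19. Hcrtr2 had a read in 75.2% and 86.9% of cells with Npy2r, against 51.4% and 33.7% of cells without it. Of the cells with Npy2r, 60.0% (50.0 to 69.4) and 75.0% (67.6 to 81.5) had both others, and 80.0% and 88.1% had at least 1 of them. Of the cells with Hcrtr2, the commonest of the 3, 36.2% and 37.0% had both others. A read of Npy2r thus mostly came with Hcrtr2 and Crhr2, while Hcrtr2 often came without Npy2r.

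The set of 3 receptors differed in frequency with the transmitter genes of the cell. Slc17a8 encodes the vesicular glutamate transporter VGLUT3, and Gad1 and Gad2 encode the enzymes that make GABA. In principal DR cells with Slc17a8 and no Gad reads, 40 of 84 (47.6%, 36.6 to 58.8) had all 3 receptors, against 12 of 47 with both kinds of gene (25.5%, 13.9 to 40.3), 10 of 136 with Gad alone (7.35%, 3.58 to 13.1) and 1 of 23 with neither. In the all DR dissection these were 107 of 429 (24.9%, 20.9 to 29.3), 10 of 89 (11.2%, 5.52 to 19.7), 0 of 75 (which allows up to 4.00%) and 3 of 116. Hcrtr2 without the other 2 was distributed otherwise, in 10 of 84 and 36 of 429 cells with Slc17a8 alone but in 38 of 136 (27.9%) and 17 of 75 (22.7%) with Gad alone. It was no less frequent with neither kind of gene, in 8 of 23 (34.8%) and 27 of 116 cells (23.3%). With both kinds it was in 5 of 47 and 8 of 89, so the higher shares were not particular to cells with Gad. In both dissections the full set was thus most frequent in cells with Slc17a8 alone, followed by cells with both kinds of gene.

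**Figure D3:**
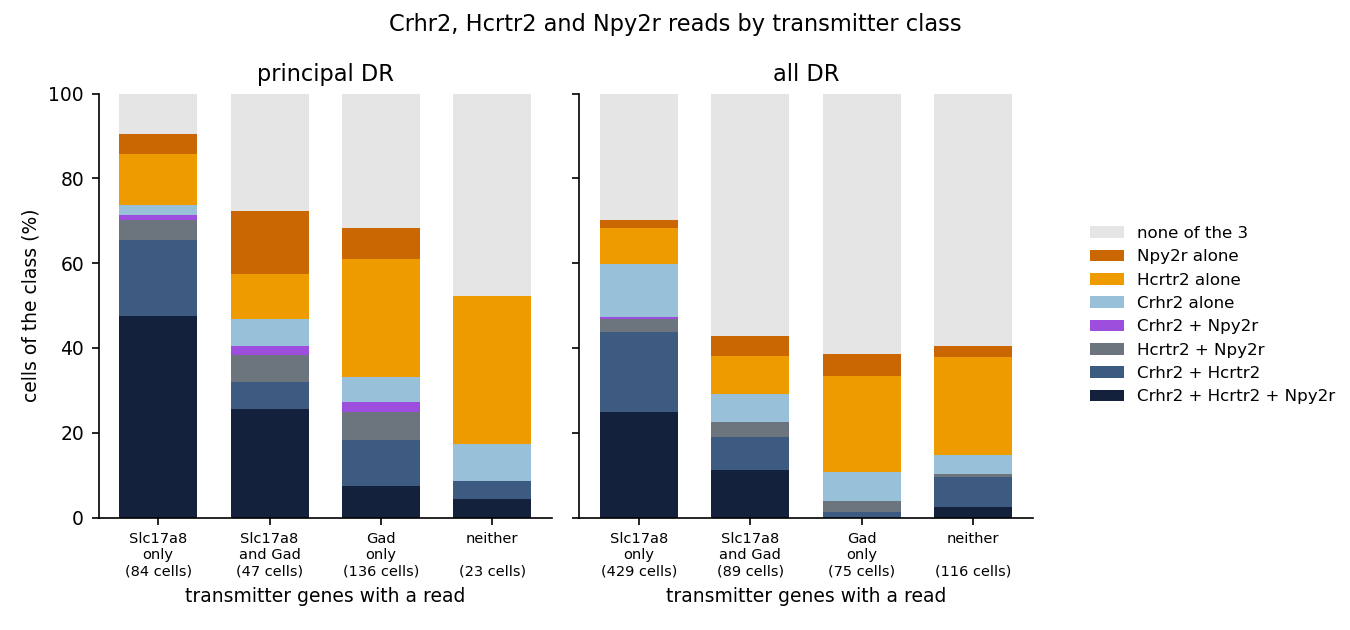
Percentage of cells (vertical axis) with each combination of Crhr2, Hcrtr2 and Npy2r reads, stacked to 100%, in cells with Slc17a8 only, Slc17a8 and Gad1 or Gad2, Gad only, or neither (horizontal axis), for each dissection. The darkest segment, all 3 receptors, takes 47.6% of Slc17a8-only cells in the principal DR and 24.9% in the all DR dissection, and 7.35% and 0 of the Gad-only cells.

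Cells with a read of Slc17a8 were then set against cells without, within each dissection, to see how receptors go with glutamate co-transmission. In the principal DR (131 against 159 cells) Crhr2, Npy2r and Cckar passed a log2 ratio of 1 upward and Hcrtr1 downward, 3 and 1 of the 8 receptors, where 0.764% of genes were higher and 0.721% lower. In the all DR dissection (518 against 191 cells) Crhr2, Npy2r, Cckar and Hcrtr2 passed upward and 0 downward, 4 of 8, where 0.27% of genes were higher and 0.65% lower. With a pseudocount of 10 the calls of Cckar ended, at 0.32 and 0.66, and so did that of Hcrtr2 in the all DR cells (0.81). The median over the receptors was 0.67 and 0.98, beside 0.00 over all genes in both. Of the ligands and related genes, Crhbp was lower in the principal DR (−1.42) and Crh higher in the all DR dissection (1.59), 1 of 6 each.

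Crhr2 was at 45.0 CPM in principal DR cells with Slc17a8 and 5.91 CPM without, a ratio of 2.74 (SD over plates 0.72), higher on 5 of 5 plates. In all DR cells it was at 33.2 against 4.86 CPM, a ratio of 2.55 (SD 1.28), higher on 11 of 11. Both ratios were larger than their SD over plates, with single plates from 2.01 to 3.73 in the principal DR and from 0.09 to 5.02 in the all DR dissection. Npy2r was at 31.6 against 4.48 CPM (ratio 2.57, SD 1.04, 5 of 5 plates) and at 16.7 against 1.4 CPM (2.88, SD 1.60, 10 of 11). Cckar was at 6.00 against 0.161 CPM in all DR cells (2.59, SD 1.42, 10 of 11 plates), with a read in 62 of 518 against 4 of 191 cells. Cckar stood in the principal DR at 1.08 (SD 1.04, 4 of 5 plates) and, without plate SER12, at 0.46, so the call there rested on that plate. Hcrtr2 was at 25.4 against 10.2 CPM in all DR cells (1.24, SD 0.83, 9 of 11 plates) and at 39.0 against 25.2 CPM in the principal DR (0.61, SD 0.58, 4 of 5). The difference between dissections was not tested.

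Hcrtr1, present in most cells of either kind, was lower with Slc17a8. It was at 132 against 281 CPM in the principal DR (−1.08, SD 0.36, lower on 5 of 5 plates, and just short of the threshold without plate SER25) and at 182 against 283 CPM in the all DR dissection (−0.63, SD 0.38, lower on 10 of 11). Hcrtr1 was the only one of the 5 frequent receptors that was lower in cells with Slc17a8 in both dissections. Median depths of cells with and without Slc17a8 were 774734 and 727211 reads in the principal DR and 897954 and 800645 in the all DR dissection, and after every cell was thinned to 250000 reads the same receptors passed.

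Cells with a read of Gad1 or Gad2 were compared in the same way. Gad1 had a read in 106 principal DR and 30 all DR cells, and Gad2 in 173 and 157. Cells with Gad, here and in the classes above, thus differed in make-up between the dissections. In the principal DR (183 against 107 cells) Crhr2, Npy2r and Cckar passed a ratio of 1 downward and 0 receptors upward, where 0.776% of genes were lower and 1.21% higher. In the all DR dissection (164 against 545 cells) Crhr2, Npy2r and Hcrtr2 passed downward and 0 upward, where 0.161% were lower and 0.721% higher. With a pseudocount of 10 all 3 all DR calls ended, at −0.96 for Crhr2, −0.83 for Npy2r and −0.70 for Hcrtr2, and of the principal DR calls that of Cckar ended (−0.51). The median over the 8 receptors was −0.37 and −0.47, beside 0.00 over all genes in both. Of the 6 ligands and related genes, Crhbp was higher in the principal DR (1.31) and 0 passed in the all DR dissection.

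Crhr2 was at 10.6 CPM in principal DR cells with Gad and 45.8 CPM in those without (−2.01, SD 0.83, lower on 5 of 5 plates), and at 10.6 against 30.1 CPM in the all DR dissection (−1.42, SD 1.87, 9 of 11). The plate spread in the all DR dissection was wider than the ratio itself. Npy2r was at 9.52 against 29.1 CPM (−1.52, SD 0.77, 5 of 5) and at 4.10 against 15.1 CPM (−1.66, SD 1.29, 11 of 11). Hcrtr2 was at 11.2 against 24.3 CPM in the all DR dissection (−1.06, SD 1.42, 9 of 11) and short of the threshold without plate SER51, SER52, SER55 or SER57, at −0.91, −0.87, −0.94 and −0.95. Hcrtr2 stood in the principal DR at −0.48 (SD 0.39, 5 of 5). Cckar, at −1.69 in the principal DR (SD 2.01, lower on 3 of 5 plates), was at −0.12 without plate SER12. In the all DR dissection Cckar stood at −0.89 (SD 1.75) and passed without plate SER48 or SER60, at −1.28 and −1.06, and after thinning, at −1.11. Hcrtr1 was at 245 against 160 CPM (0.61, SD 0.53) and at 230 against 203 CPM (0.18, SD 0.54), without passing. Median depths with and without Gad were 751914 and 760952 reads in the principal DR and 860396 and 872360 in the all DR dissection.

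Trh encodes thyrotropin-releasing hormone, a peptide that serotonin neurons can release. In cells with a read of Trh, Crhr2, Hcrtr2 and Npy2r passed a ratio of 1 downward and 0 receptors upward in both dissections, 3 of 8. In the principal DR (98 against 192 cells) 0.984% of genes were lower and 1.05% higher, and in the all DR dissection (40 against 669 cells) 1.7% were lower and 1.27% higher. With a pseudocount of 10 only Crhr2 of the 3 still passed, at −1.58 and −1.30, while Hcrtr2 was at −0.80 and −0.96 and Npy2r at −0.67 and −0.69. The median over the receptors was −0.37 and −0.72, beside −0.01 and −0.02 over all genes. Crhr2 was at 4.53 against 33.3 CPM (−2.63, SD 1.61, lower on 5 of 5 plates) and at 4.97 against 26.8 CPM (−2.22, SD 2.03, 8 of 8). Hcrtr2 was at 17.8 against 38.4 CPM (−1.07, SD 0.43, 5 of 5) and at 6.58 against 22.1 CPM (−1.61, SD 2.17, 6 of 8). Npy2r was at 9.20 against 20.6 CPM (−1.08, SD 1.85, 5 of 5) and at 4.33 against 13.1 CPM (−1.40, SD 1.46, 7 of 8). In the principal DR the calls of Hcrtr2 and Npy2r lay close to the threshold, at −0.98 and −0.81 without plate SER13 and just under it and at −0.92 without plate SER25. Receptors with fewer reads crossed it the other way, Npy5r from 0.97 to 1.18, 1.01 and 1.05 without SER13, SER25 and SER39, and Cckar from −0.83 to −1.02, −1.24 and −1.12 without SER13, SER39 and SER40. Crh was lower with Trh in the principal DR (−1.23), the only one of the 6 ligands and related genes to pass there, and 0 passed in the all DR dissection. These comparisons share cells with those of Gad and Slc17a8 and are not independent of them. Median depths with and without Trh were 771921 and 753678 reads, and 880446 and 868692.

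Cells with a read of Zeb2 could be compared in the all DR dissection only (147 against 562 cells), since 3 principal DR cells had one. The study reports Zeb2 in both its caudal DR cluster and an MR cluster, so this set need not be a single cell type. Crhr2, Hcrtr1, Hcrtr2 and Npy2r passed a ratio of 1 downward and 0 receptors upward, 4 of 8, where 2.9% of genes were lower and 1.65% higher. All 4 were lower on 11 of 11 plates. The median over the receptors was −1.43, beside −0.00 over all genes. Crhbp was higher (1.85, 11 of 11 plates) and Crh lower (−1.43, 5 of 11 plates lower and 4 higher) among the ligands and related genes.

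Npy2r was nearly missing from Zeb2-positive cells, with a read in 1 of 147 (0.68%, 0.0172 to 3.73) against 159 of 562 (28.3%, 24.6 to 32.2), and a ratio of −4.01 (SD 1.02). Hcrtr2 had a read in 12 of 147 (8.16%, 4.29 to 13.8) against 312 of 562 cells (55.5%, 51.3 to 59.7), at 2.38 against 26.2 CPM (−3.01, SD 1.11). Hcrtr1 had a read in 85 of 147 (57.8%, 49.4 to 65.9) against 530 of 562 (94.3%, 92.1 to 96.1), at 33.1 against 255 CPM (−2.91, SD 0.92). Thus the receptor found almost everywhere else was missing or low in many of these cells. Crhr2 had a read in 24 of 147 (16.3%) against 265 of 562 (47.2%), at 5.24 against 30.9 CPM (−2.35, SD 1.25). Among cells with a read of Slc17a8 the ratios were −4.42 for Npy2r, −3.14 for Hcrtr2, −2.56 for Hcrtr1 and −2.50 for Crhr2, a comparison chosen after seeing the data. Cckar had a read in 4 of 147 (2.72%, 0.746 to 6.82) against 62 of 562 (11.0%, 8.56 to 13.9) and was lower on 9 of 11 plates, with a ratio of −0.50 (SD 1.49) that did not pass, or −1.63 without plate SER48 and −1.44 averaged over plates. Npy1r had a read in 14 of 147 (9.52%, 5.31 to 15.5) against 18 of 562 (3.20%, 1.91 to 5.01), with a ratio of 0.77 that did not pass. Median depths were 884326 and 869119 reads.

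**Figure D4:**
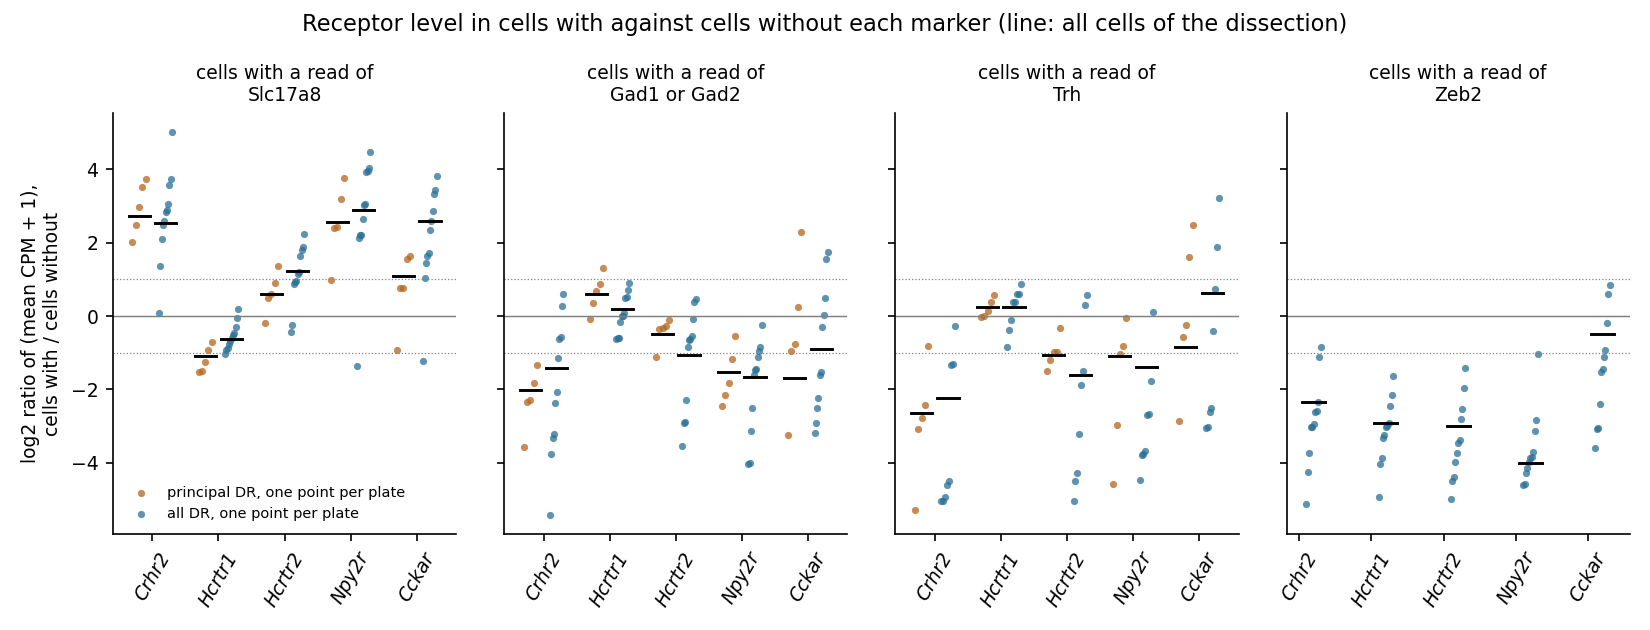
Log2 ratio of (mean CPM + 1) in cells with against cells without a read of Slc17a8, of Gad1 or Gad2, of Trh and of Zeb2 (4 panels, vertical axis) for the 5 frequent receptors (horizontal axis), with 1 point per plate and a black line for all cells of the dissection. The black lines of Crhr2 and Npy2r lie above 1 with Slc17a8 and below −1 with Gad, Trh and Zeb2. Single plates do not all follow, with all DR plates at 0.09 (Crhr2) and −1.37 (Npy2r) with Slc17a8 and 0.59 (Crhr2) with Gad. The line of Hcrtr1 falls to −2.91 with Zeb2, where all its plates lie below 0.

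Levels of ln(CPM + 1) were correlated across the 999 cells after each gene was centred on its plate, with the cells sharing plates and depth, so r is a description. Of 28 pairs of receptors 4 had an r over 0.3. For genes with a mean over 10 CPM, 3 of the 6 pairs among Crhr2, Hcrtr1, Hcrtr2 and Npy2r passed, where 1.06% of all pairs of such genes did. Crhr2 and Hcrtr2 had an r of 0.57 (0.44 in the principal DR, 0.62 in the all DR dissection), above 0 on 16 of 16 plates. Crhr2 and Npy2r had 0.45 (0.47 and 0.45, 15 of 16 plates), and Hcrtr2 and Npy2r 0.42 (0.31 and 0.47, 16 of 16). These 3 genes thus rose and fell together within plates in both dissections. Within the 649 cells with a read of Slc17a8 the r values were 0.65, 0.42 and 0.46, and within the 350 without 0.21, 0.20 and 0.15. The correlation with the logarithm of reads per cell was 0.19 for Crhr2, 0.20 for Hcrtr2 and 0.13 for Npy2r, and its part in the pairs' values was not tested beyond thinning, which kept all 4 pairs over 0.3.

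The fourth pair was Npy1r and Npy5r, at 0.38 (0.44 and 0.36), in counts so sparse that it rests on the 12 cells with both. Hcrtr1 went with none of the others. Its r was −0.00 with Crhr2 (−0.19 and 0.06), 0.10 with Hcrtr2, −0.10 with Npy2r, −0.23 with Npy1r and −0.24 with Cckar. Negative values were thus found with Cckar on 15 of the 16 plates. Cckar was closest to Npy2r (0.23) and Npy1r (0.23), and in the all DR dissection 39 of 66 cells with Cckar had a read of Npy2r (59.1%) against 121 of 643 without (18.8%), higher on 8 of 8 plates. Principal DR cells gave 13 of 27 (48.1%) against 92 of 263 (35.0%).

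**Figure D5:**
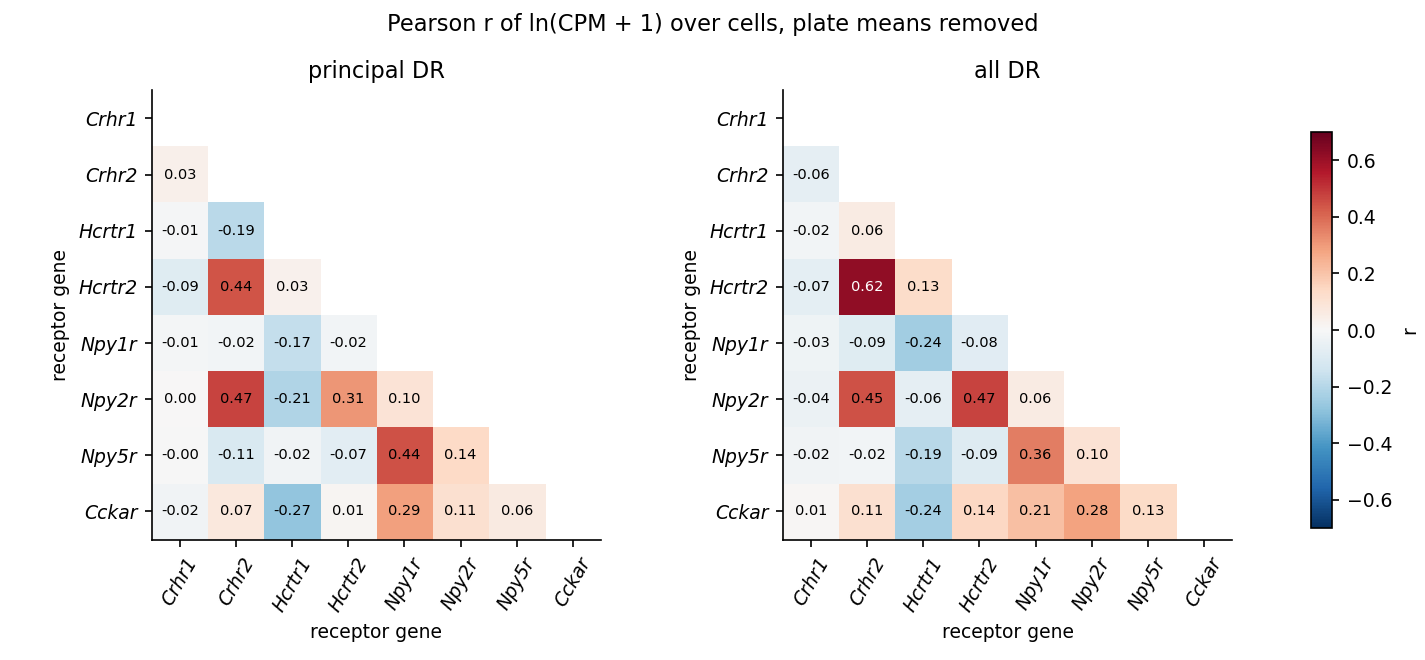
Pearson r of ln(CPM + 1) between receptors (both axes) over the cells of each dissection after plate means were removed, with the value in each square and red for positive and blue for negative r. Crhr2, Hcrtr2 and Npy2r form positive squares from 0.31 to 0.62 in both panels, Npy1r pairs with Npy5r at 0.44 and 0.36, and Hcrtr1 is at or below 0.13 with every other receptor.

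The genes most like each receptor were sought among the 8087 with a mean over 10 CPM. For Crhr2 these were Htr5b (0.64), which encodes a serotonin receptor, Hcrtr2 (0.57) and Oasl2 (0.53), an interferon-induced gene, and 71 genes had an r over 0.3. Hcrtr2 was followed by Crhr2 (0.57), Gsta4 (0.48), a glutathione transferase, and S100a11 (0.45), a calcium-binding protein. For Npy2r they were Kcnab1 (0.53), a potassium channel subunit, Htr5b (0.49) and Plcb1 (0.47), a phospholipase C. Htr5b was thus near the top for both Crhr2 and Npy2r, with r of 0.47 and 0.70 for Crhr2 and 0.47 and 0.50 for Npy2r in the principal and all DR cells. With Hcrtr2 the same gene had 0.41 over all cells, but 0.10 in the principal DR and 0.53 in the all DR dissection.

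Hcrtr1 had other companions, namely Prkcq (0.61), a protein kinase C, Cplx2 (0.58), a complexin of synaptic vesicle release, and Arhgef3 (0.56), a guanine nucleotide exchange factor, and it had the most genes over 0.3, at 136. Cckar went with Rgs10 (0.44), a regulator of G protein signalling, Tmeff2 (0.41) and Pcdh11x (0.41), a protocadherin. For Npy1r, Npy5r and Crhr1 0 of 8087 genes reached 0.3, and no likeness is given for such sparse genes.

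Against the genes of the sets and the other subtype markers that the study named, Crhr2 had an r of 0.52 with Slc17a8 and −0.28 with Gad2, and among the other markers it was highest with Htr5b (0.64), Gal (0.47), the gene for galanin, and Sox1 (0.45), and lowest with Dlk1 (−0.27, in the principal DR −0.49 and in the all DR cells −0.17) and Piezo2 (−0.27, in the principal DR 0.01 and in the all DR cells −0.32). Hcrtr2 had 0.34 with Slc17a8 and was highest with Htr5b (0.41, in the principal DR 0.10 and in the all DR cells 0.53) and Sox1 (0.35). Npy2r had 0.42 with Slc17a8 and was highest with Htr5b (0.49), Sox1 (0.34) and Esr2 (0.29), an estrogen receptor gene. Hcrtr1 was lowest with Zeb2 (−0.54), Met (−0.45) and Piezo2 (−0.40), values that came from the all DR cells, since in the principal DR they were −0.10, −0.00 and −0.00. Its highest over all cells was Irx2 (0.27), at 0.05 in the principal DR and 0.30 in the all DR cells, and in the principal DR Sox14 was higher (0.33). Cckar was highest with Pdyn (0.41), the gene for prodynorphin, Htr5b (0.34) and Ret (0.29) and lowest with Rorb (−0.22). Over all cells, Crhr2, Hcrtr2, Npy2r and Cckar thus shared Htr5b among their highest markers, while Hcrtr1 had an r of −0.23 with it. For Hcrtr2 this came from the all DR cells. These markers were chosen by the study on these cells and are not independent of them.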

How the data were processed

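The receptors and the marker lists were chosen with earlier results of these data known. The authors aligned reads to mm10 with STAR 2.6.1a, counted them with HTSeq 0.11.2 ignoring strand, dropped Y-linked genes and deposited CPM, each gene's count scaled to 1e6 reads on genes, for 999 of the 1536 labelled cells. The other 537 cells were not analysed here. All 9386862 values above 0 were whole multiples of 1 read within 0.001, so reads were recovered from the deposited CPM and the values were summed to depths of 96834 to 2780443 reads per cell. No count model was run, since with 1 sample per dissection there is no replicate. Cells were sorted singly and no doublet caller was run. The annotation version the authors used is not given in the sources used here, and coordinates and exon lengths are from GENCODE M21 (GRCm38).

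A log2 ratio is that of mean CPM plus a pseudocount of 1, over all genes with a read in at least 3 cells, and passes at 1 in either direction. Sets needed 10 cells a side in a dissection and 3 in a plate. Plates with at least 20 cells entered correlations by plate. The named genes were the 9 receptors, for each receptor the 3 most like it by within-plate r among genes with a mean over 10 CPM, the 12 ligands and related genes, the genes defining the sets and, of the study's subtype markers, up to 3 highest and 3 lowest per receptor. Intervals are 95% Clopper-Pearson and cover counting error only, since reads without molecular identifiers are not independent molecules, and a count of 0 was bounded by 3 cells over the total. The steps were tested on simulated data. Python 3.11.15, NumPy 2.4.6, SciPy 1.17.1 and pandas 2.3.3 were used. Alternatives were 5 reads or 10 CPM as the limit of detection, pseudocounts of 0.1 and 10, weighting by plate, thinning to 250000 reads, and leaving out each plate.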

Additional observations from a re-analysis of the deposited data

Results flagged for a closer look

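Of 16 receptor values on the 5 principal DR plates, 3 stood outside the others by Dixon's criterion. By chance it marks about 1 in 20 groups of normally distributed values, a rate that does not hold for values at 0 on most plates. Plates are not separate samples of a group here. Both values of Crhr1 came from plate SER13, where 2 of 85 cells had a read (2.35%) at a mean of 0.226 CPM, against 0 on the other 4 plates. They rest on the same 2 cells, and with the other 4 plates at 0 any read on 1 plate meets the criterion. For Npy1r, plate SER12 had a mean of 0.949 CPM, with a read in 10 of 93 cells, against 0 to 0.236 CPM on the others. The cause was not tested.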

How the results depend on the processing

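With 1 sample per dissection, every value describes these cells, and the depth limits what can be said of receptors with a read in under 5% of cells. No paired analysis was possible because each dissection is 1 sample and the dissections share no plate, and cells with and without a marker, which do share plates, are described by their ratios in each plate. Mean receptors per cell kept within the spread of plates in 24 of 24 alternatives, and of 372 alternatives to the 24 called log2 ratios 0 turned the direction and 26 fell short of the threshold. Over all 72 ratios, called or not, 86 of 1179 alternatives moved the value by at least the SD of its plates.

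With detection from 10 CPM, shares fell to 52.8% (Hcrtr2), 29.3% (Npy2r) and 1.38% (Npy1r) in the principal DR and to 83.4% (Hcrtr1), 40.2% (Hcrtr2), 2.12% (Npy1r) and 0.423% (Crhr1) in the all DR cells, and with 5 reads to 2.68% (Npy1r, all DR). Leaving out each plate gave 0 to 1.02% for Crhr1, 1.52 to 5.26% for Npy1r and 1.02 to 3.90% for Npy5r in the principal DR, the lowest without SER13, SER12 and SER12.

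A pseudocount of 0.1 gave 1 receptor past the threshold between dissections in place of 0, 7 and 7 with Slc17a8 in place of 4 and 4 (principal and all DR), 5 and 5 with Gad in place of 3 and 3, 6 and 7 with Trh in place of 3 and 3, and 7 with Zeb2 in place of 4. The receptors added were Crhr1, Npy1r, Npy5r, Cckar and Cckbr, each with a read in under 10% of cells. Unlike the main counts, these counts take in Cckbr, which had a read in 2 cells. Cckbr was the 1 between dissections (1.005) and was added in the all DR comparisons with Slc17a8, Gad, Trh and Zeb2. The share of all genes past the threshold at this pseudocount was not computed. A pseudocount of 10 gave 2 with Slc17a8 (Crhr2 and Npy2r) and 0 with Gad in the all DR cells, and 1 and 1 with Trh (Crhr2). Leaving out each plate gave 0 to 1 between dissections (1 without SER12) and 2 to 5 with Trh in the principal DR (5 without SER39).

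Of the 4 correlated pairs, all kept an r over 0.3 without centring, by ranks, after thinning and without each plate, from 0.31 for Npy1r and Npy5r by ranks to 0.58 for Crhr2 and Hcrtr2. Thinning left out 1 and 8 cells. Leaving out cells with a read of Zeb2, or in the Zeb2 comparison those without Slc17a8, were chosen after seeing the data and kept every receptor that had passed. Leaving out the 2 and 6 cells high in glial markers, chosen in the same way, kept every share within its 95% interval. Averaging ratios over plates ended the principal DR calls of Cckar with Slc17a8 (0.76) and with Gad (−0.49) and of Hcrtr2 with Trh (−0.99) and added Cckar with Zeb2 (−1.44), and requiring 10 CPM put Hcrtr2 with Gad in the all DR cells at −0.99 and Npy5r with Trh in the principal DR at 1.04.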
